A study of Mus musculus with 31 samples.

Results

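Translational efficiency, the ribosome occupancy of a gene's mRNA relative to the amount of that mRNA, was compared between cortex of FXS mice, which are deficient in Fmr1, and of wild-type (WT) mice. The comparison used every FXS and WT library of the series, 17 of 31: ribosome footprint libraries of 5 FXS and 4 WT samples, and polyA mRNA libraries of 4 FXS and 4 WT samples. The series also held mice labelled S6K1, deficient in Rps6kb1, and mice labelled DKO, deficient in both genes, which serve below as a second background for the loss of Fmr1. All mice were between postnatal days 29 and 34 and the tissue was dissected brain cortex. The labels give a genotype but no allele, strain or sex, and do not say whether a library came from 1 animal. They also do not tie a footprint library to an mRNA library of 1 animal. The p-values therefore measure a spread between libraries, which was estimated from all 31 libraries of the series in 1 model. Translational efficiency (TE) is given as the log2 change of footprints minus the log2 change of mRNA. A TE change of 1 thus means 2 times the footprints per mRNA, relative to the typical gene. Each assay was scaled within itself, so a shift in occupancy shared by all genes would not show. Levels are CPM, the count of a gene scaled to the same library total, within 1 assay.

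Fmr1 encodes FMRP, an RNA-binding protein that associates with polyribosomes and is best known for restraining translation, and its silencing causes fragile X syndrome. FMRP binds the coding sequence of many brain mRNAs, among them mRNAs of large synaptic and chromatin proteins. In ribosome profiling, nuclease removes the mRNA that ribosomes do not cover, and the protected footprints are sequenced. A footprint count rises when more ribosomes load onto an mRNA and also when ribosomes stay on it longer, so TE is a measure of occupancy and not of protein output.

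The FXS and WT footprint libraries held 16.8 to 34.9 M counts (median 24.2 M) and the mRNA libraries 12.1 to 17.3 M (median 13.7 M). Of 20436 gene symbols, 13654 had enough counts in both assays and were tested. The batches of the labels were unequal: footprint batch 3 held 1 library of each genotype, batch 2 held 2 FXS and 1 WT library and batch 4 held 2 of each, while mRNA batches 5 to 8 each held 1 of each. Defining markers of cortical neurons, astrocytes and oligodendrocytes were present, and no marker on any of the 7 cell type lists was at 0 throughout a group. Summed neuron markers reached 14866 to 16254 CPM in WT and 13736 to 15568 in FXS footprints. Striatal markers differed between batches, summing to 322 to 1133 CPM in WT and 311 to 869 in FXS footprints, with all 3 libraries of batch 2 above the others.

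Fmr1 itself fell in both assays and fell further in footprints (chrX:68678536-68717963 in mm10). Its footprints were 108, 118, 136 and 105 CPM in WT libraries and 8.299, 7.65, 8.71, 6.93 and 7.67 in FXS. Its mRNA was 77.7, 64.2, 73.1 and 55.97 CPM in WT and 21.9, 13.1, 16.3 and 14.6 in FXS. The groups did not overlap in either assay, which is the check of the genotype labels. Footprints changed by -3.89 and mRNA by -2.05 on the log2 scale, leaving a TE change of -1.84 ± 0.163 (SE; adjusted p = 1.61e-07, edgeR quasi-likelihood test with Benjamini-Hochberg adjustment over all genes tested). Rps6kb1, the gene that encodes S6 kinase 1, is not targeted in either group. Its footprints were 28.9 CPM ± 2.86 (SD, n = 4) in WT and 32.5 CPM ± 2.64 (n = 5) in FXS, and its TE change of 0.20 ± 0.1204 did not pass the test (adjusted p = 0.467).

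Besides Fmr1, 12 genes changed in TE at an adjusted p under 0.05, and the changes were modest for most of them. In all, 13 genes were called by edgeR, which is meant below wherever no tool is named, 0.0952% of those tested, with 4 higher in FXS (0.0293%) and 9 lower (0.0659%). The lower genes were Fmr1, Igsf9b, Myrf, Adcy1, Tnr, Zmiz1, Aatk, Rph3a and Ciz1, with TE changes from -0.99 for Igsf9b to -0.49 for Ciz1 outside Fmr1. The higher genes were Igbp1b, Stpg1, Cebpzos and 2700029M09Rik. At an unadjusted p under 0.05 there were 1825 genes (13.4% of those tested), 773 higher (5.66%) and 1052 lower (7.7%). The calls were close to the threshold: 11 of the 13 genes shared an adjusted p of 0.0497, and the next gene, Llgl1, had 0.0509. Leaving out any 1 library changed the number called to between 1 and 33, with Fmr1 called every time and Zmiz1 in 14 of 27 alternatives. With the FXS and WT libraries fitted alone, 1 gene was called. DESeq2 called 33 genes higher and 97 lower. All 13 kept their direction in every alternative that gave them a value, but the alternatives reuse the libraries that chose these genes.

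**Figure D1:**
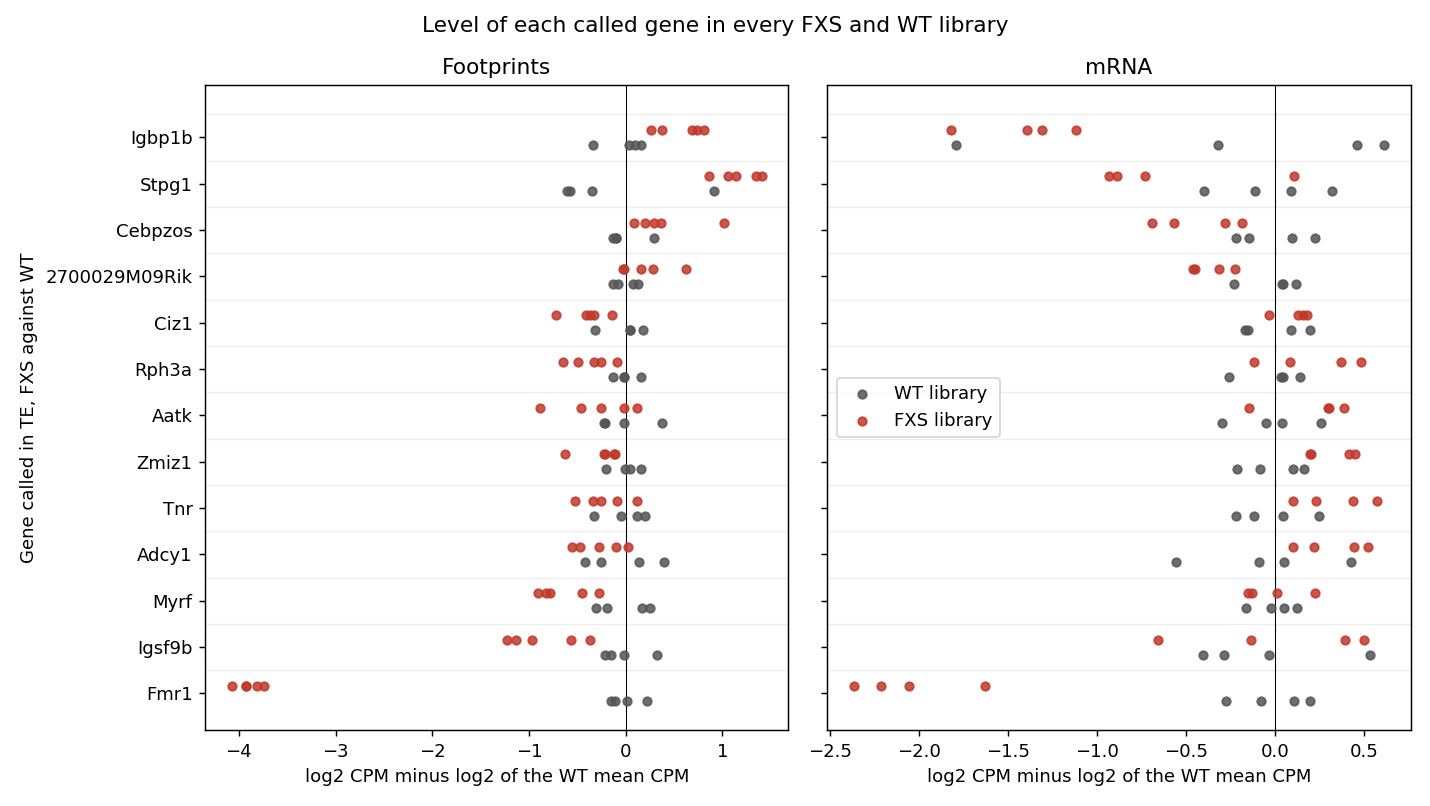
Each point is 1 library, the x axes give log2 CPM minus the log2 of the WT mean CPM, for footprints on the left and mRNA on the right, and the y axis lists the 13 called genes by TE change. For the genes with lower TE, FXS points lie mostly to the left in footprints, and for most of them mostly to the right in mRNA, and apart from Fmr1 the 2 groups overlap in at least 1 assay for every gene.

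In 11 of the 13 called genes the footprint change and the mRNA change had opposite signs, and the footprint change was the larger in 8. Selecting genes on the difference of these 2 changes favours opposite signs: among all genes tested, where footprint and mRNA changes were nearly unrelated (Pearson r = 0.0147, Spearman rho = -0.0633, across 13654 genes, which are not independent replicates), 7397 had opposite signs, and among the 1825 genes at an unadjusted p under 0.05 in TE, 1659 did. The parts are therefore given for each gene.

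Among the called genes with lower TE, 4 belong to a list of mRNAs taken as bound by FMRP in brain. It holds 129 of the 13654 genes tested, and absence from it does not mean that an mRNA is unbound. The list was written with earlier results of these data known, so this membership is a description. Zmiz1, a coregulator of transcription with a SUMO-ligase-like domain (chr14:25457875-25666743), had the smallest p after Fmr1. Its footprints were 153, 119, 141 and 136 CPM in WT and 127, 117, 89.1, 118 and 126 in FXS, and its mRNA was 55.4, 42.6, 46.7 and 53.1 in WT and 67.5, 56.8, 56.9 and 66.1 in FXS. The mRNA of every FXS library exceeded that of every WT library, while the footprints overlapped but were lower in FXS in each of 3 batches. The footprint change of -0.27 and the mRNA change of 0.32 gave a TE change of -0.59 ± 0.104 (adjusted p = 0.0292, edgeR).

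Adcy1, a calcium-stimulated adenylyl cyclase of neurons (chr11:7063433-7178506), followed the same arrangement. Its footprints were 94.1, 78.8, 53.5 and 59.7 CPM in WT and 72.9, 66.5, 51.6, 59.01 and 48.5 in FXS, and its mRNA 144, 73.01, 101 and 111 in WT and 154, 115, 125 and 146 in FXS. Both assays overlapped between genotypes, but within batches mRNA was higher in FXS in 4 of 4 and footprints were lower in 3 of 3. Its TE change was -0.67 ± 0.125 (adjusted p = 0.0497, edgeR), with -0.31 in footprints and 0.36 in mRNA.

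Igsf9b, an adhesion protein of inhibitory synapses (chr9:27299104-27357549), was set apart by its footprints. They were 20.4, 16.1, 14.02 and 14.7 CPM in WT and 12.6, 11.04, 6.95, 8.35 and 7.43 in FXS, without overlap. Its mRNA, 12.5, 6.55, 7.11 and 8.46 in WT and 12.3, 5.49, 7.899 and 11.4 in FXS, overlapped widely and was higher in FXS in 2 of 4 batches. The TE change was -0.99 ± 0.196 (adjusted p = 0.0497, edgeR), made of -0.90 in footprints and 0.09 in mRNA.

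Aatk, a brain kinase first described in apoptosis (chr11:120007311-120047183), had footprints of 240.2, 183, 159 and 159.8 CPM in WT and 200.4, 183, 100.2, 155 and 135 in FXS. Its mRNA was 229.7, 273, 291 and 338 in WT and 255, 348, 349.6 and 371 in FXS. The groups overlapped in both assays, and each batch had lower footprints and higher mRNA in FXS. The TE change was -0.58 ± 0.1201 (adjusted p = 0.0497, edgeR).

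The other called genes with lower TE were a myelin regulator, an extracellular matrix protein, a synaptic vesicle protein and a nuclear protein. Myrf, the transcription factor that switches on myelin genes in oligodendrocytes (chr19:10208271-10240777), had footprints of 35.02, 37.1, 27.3 and 25.1 CPM in WT and 22.8, 25.6, 17.5, 18.1 and 16.6 in FXS, while its mRNA was 25.3, 30.9, 29.3 and 27.9 in WT and 25.9, 25.5, 28.6 and 33.1 in FXS. Only 1 FXS footprint library, at 25.6 CPM, exceeded the lowest WT library. Its TE change of -0.70 ± 0.136 (adjusted p = 0.0497, edgeR) came from footprints, which changed by -0.70 against 0.00 in mRNA.

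Tnr, a glycoprotein of perineuronal nets made by oligodendrocyte lineage cells and some neurons (chr1:159523729-159931729), had footprints of 88.8, 84.2, 61.9 and 74.8 CPM in WT and 72.5, 84.03, 61.1, 64.7 and 53.8 in FXS. Its mRNA was 41.9, 34.9, 37.4 and 48.2 in WT and 47.7, 43.6, 55.1 and 60.3 in FXS. The groups overlapped in both assays, and mRNA made the larger part of its TE change of -0.61 ± 0.125 (0.35, against -0.27 in footprints; adjusted p = 0.0497, edgeR).

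Rph3a, a Rab3 effector of synaptic vesicles (chr5:120940499-121010116), was the most abundant called gene in footprints, with 629, 578, 626 and 706 CPM in WT and 531, 450.2, 405, 596 and 504 in FXS. Its mRNA was 340.1, 419, 448 and 416 in WT and 374, 568, 525 and 431 in FXS, higher in FXS in each of 4 batches. Ciz1, a nuclear protein that interacts with a cell cycle inhibitor (chr2:32363007-32378313), had footprints of 39.99, 31.2, 44.1 and 40.1 CPM in WT and 29.3, 30.02, 23.6, 35.1 and 31.03 in FXS, with mRNA of 71.5, 85.6, 72.5 and 92.2 in WT and 78.8, 91.04, 89.7 and 88.2 in FXS. Both genes had lower footprints in FXS within all 3 batches, and the groups overlapped in both assays. Their TE changes were -0.55 ± 0.115 and -0.49 ± 0.10, each at an adjusted p of 0.0497 by edgeR.

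Of the 4 genes with higher TE, 2 were at levels that make a fold change imprecise. Cebpzos, which encodes a small mitochondrial protein (chr17:78916499-78921048), had footprints of 8.86, 11.9, 9.08 and 9.06 CPM in WT and 10.3, 12.6, 19.6, 11.9 and 11.2 in FXS, and mRNA of 18.8, 14.6, 17.2 and 13.9 in WT and 14.2, 9.98, 13.3 and 10.9 in FXS. Footprints were higher and mRNA lower in FXS in every batch, and both groups overlapped. Its TE change was 0.86 ± 0.176 (adjusted p = 0.0497, edgeR). The gene 2700029M09Rik, listed in RefSeq as Hpf1, a partner of PARP1 in DNA repair (chr8:60890392-60907580), had mRNA of 93.8, 98.98, 94.2 and 77.6 CPM in WT and 73.3, 78.04, 66.2 and 66.9 in FXS. Its footprints were 36.1, 34.95, 30.1 and 31.3 CPM in WT and 36.9, 40.2, 50.8, 32.4 and 32.6 in FXS. The groups overlapped in both assays, and mRNA, at -0.36, gave most of its TE change of 0.55 ± 0.111 (adjusted p = 0.0497, edgeR).

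Stpg1, a sperm-tail protein gene (chr4:135494670-135537803), had footprints of 0.363, 0.302, 0.309 and 0.867 CPM in WT and 1.02, 1.17, 0.96, 1.22 and 0.834 in FXS, and mRNA of 2.398, 3.95, 2.93 and 3.36 in WT and 1.71, 3.403, 1.9 and 1.66 in FXS. One WT footprint library of Stpg1 lay within the FXS range, and mRNA was lower in FXS in each of 4 batches. Igbp1b, an intronless relative of Igbp1 (chr6:138657089-138658454), had footprints of 0.881, 0.679, 0.956 and 0.915 CPM in WT and 1.499, 1.11, 1.03, 1.38 and 1.43 in FXS, and mRNA of 1.51, 0.316, 1.67 and 0.876 in WT and 0.441, 0.309, 0.416 and 0.504 in FXS. The counts of Igbp1b are uncertain, since how the counting treated reads that match Igbp1 as well is not given in the sources used here. The fitted TE changes were 1.81 ± 0.3604 and 1.93 ± 0.391, the 2 highest among called genes and also those with the widest errors. The footprints of Igbp1b did not overlap, but the Igbp1b mRNA of WT batch 6 was as low as that of FXS.

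Among the uncalled genes with the smallest p, 3 ribosomal protein genes had higher TE: Rpl39 at 0.66 ± 0.144 (adjusted p = 0.0732, edgeR), Rpl22 at 0.53 ± 0.121 and Rpl36a at 0.52 ± 0.124. The others on the higher side were Tmsb4x, which encodes the actin-binding thymosin beta 4 (0.66 ± 0.142), the calcium-binding protein gene Necab2 (0.66 ± 0.151), the centrin gene Cetn2 (0.47 ± 0.108), Gnpnat1 of hexosamine synthesis (0.54 ± 0.128) and Phf10, a subunit of SWI/SNF chromatin remodellers (0.38 ± 0.0918). On the lower side were Llgl1, a cell polarity gene whose footprints were 45.3 CPM ± 1.26 (SD, n = 4) in WT and 33.9 CPM ± 3.81 (n = 5) in FXS without overlap, with a TE change of -0.62 ± 0.128, Pitpnm2, a phosphatidylinositol transfer protein (-0.58 ± 0.126), and the adhesion gene Mcam (-0.88 ± 0.192). These uncalled genes had adjusted p-values from 0.0509 to 0.0947 by edgeR. DESeq2 called 9 of the 11 and gave no adjusted p for the others, Gnpnat1 and Mcam.

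Described by list, the median TE change was above 0 for ribosomal protein mRNAs and below 0 for FMRP-bound, myelin and several neuronal mRNAs. Each list is given by its median and by the number of members at an unadjusted p under 0.05. All genes tested had 5.66% higher, 7.7% lower and a median of -0.01. The lists were not matched for coding length, and the part of coding length in these values was not tested. The scatter of footprint against mRNA change shows how 3 of the lists, those of ribosomal protein, FMRP-bound and myelin mRNAs, were made up.

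**Figure D2:**
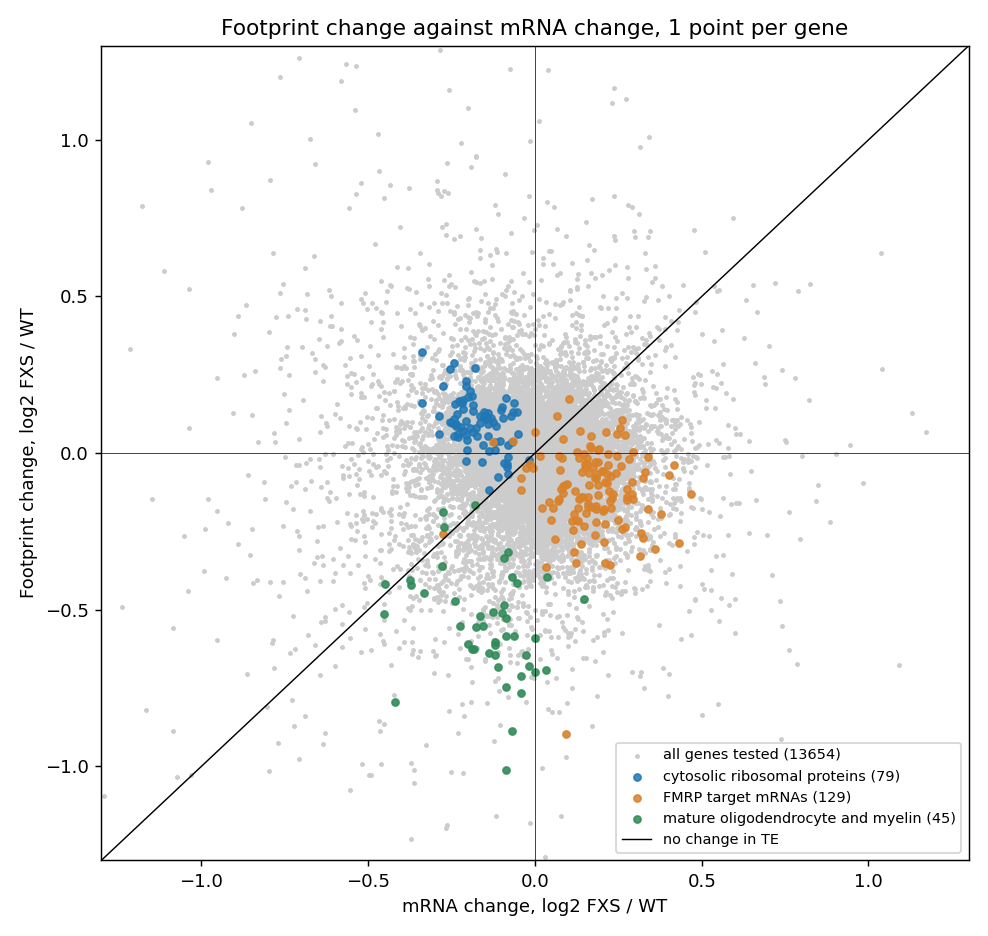
Each point is 1 gene, with its mRNA change on the x axis and its footprint change on the y axis (log2, FXS over WT); grey points are all genes tested, colours mark 3 lists, and the diagonal is an unchanged TE, with 26 genes outside the axes. Ribosomal protein genes lie above the diagonal with mRNA below 0 (list median -0.18), FMRP targets below it with mRNA above 0 (0.17), and myelin genes below it with footprints below 0 (-0.55).

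Cytosolic ribosomal protein genes, whose mRNAs are a classic class under translational control, had a TE change above 0 in 78 of 79 members tested. None was called by edgeR or limma voom and 3 were among the 33 genes called higher by DESeq2, while 44 (55.7%) were higher and none lower at an unadjusted p under 0.05. The median TE change was 0.26 (quartiles 0.19 and 0.35). It combined a median of -0.18 in mRNA, where 33 members (41.8%, against 5.16% of all genes) were lower at an unadjusted p under 0.05, with 0.10 in footprints, where 9 (11.4%, against 4.06%) were higher. Among the most abundant members, Rpl3 was at 0.18 ± 0.109, Rpl4 at 0.19 ± 0.104 and Rpl6 at 0.26 ± 0.102, none of them called.

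Library by library, the mRNA side of the ribosomal protein list was the steadier. Its median was lower in FXS in all 4 mRNA batches, by 0.12, 0.32, 0.18 and 0.09 on the log2 scale in batches 5 to 8. In footprints it was higher in FXS by 0.07 in batch 2, 0.29 in batch 3 and 0.03 in batch 4. Most of the footprint side thus came from batch 3, with 1 library of each genotype. The number of members at an unadjusted p under 0.05 was 24 without that batch and as low as 23 without FXS mRNA replicate 2 or 3, and the median stayed between 0.22 and 0.34 over 27 alternatives. Translation initiation and elongation factors, which work with the same ribosomes, had 5 of 47 members higher and 1 lower at an unadjusted p under 0.05, with a median of 0.06, which was 0.03 with 2 members higher without footprint batch 3. Eif3j1, at 0.37 ± 0.124, had the smallest p among them.

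FMRP-bound mRNAs had a TE change below 0 in 123 of 129 members tested. Of the 129, 4 were called lower by edgeR, 21 were among the 97 called lower by DESeq2 and 1 was called by limma voom, and 77 (59.7%) were lower and none higher at an unadjusted p under 0.05. The median TE change was -0.28 (quartiles -0.39 and -0.19). The mRNA part was a median of 0.17, with 59 members (45.7%, against 5.99% of all genes) higher at an unadjusted p under 0.05, and the footprint part was -0.10, with 33 (25.6%, against 7.38%) lower. Known targets among the abundant members were Map1b, a microtubule-associated protein of axons, with a TE change of -0.42 ± 0.1596, and Camk2a, a kinase of synaptic plasticity, with -0.39 ± 0.148. Neither passed the test. Camk2a divided into -0.09 in footprints and 0.29 in mRNA, and Map1b into -0.13 and 0.29.

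Within batches, the mRNA median of FMRP targets was higher in FXS in all 4, by 0.10, 0.28, 0.18 and 0.12. The footprint median was lower by 0.20 in batch 2 and 0.23 in batch 3, but in batch 4, with 2 libraries of each genotype, the groups differed by under 0.01 and 67 of 129 members were lower. The lower TE of the list was therefore carried by mRNA in every mRNA batch and by footprints in 2 of 3 footprint batches. The count at an unadjusted p under 0.05 was 57 without WT footprint replicate 1 or WT mRNA replicate 2, and 13 without the batch term. The 71 members on none of the other lists had a median of -0.26, with 41 lower at an unadjusted p under 0.05.

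**Figure D3:**
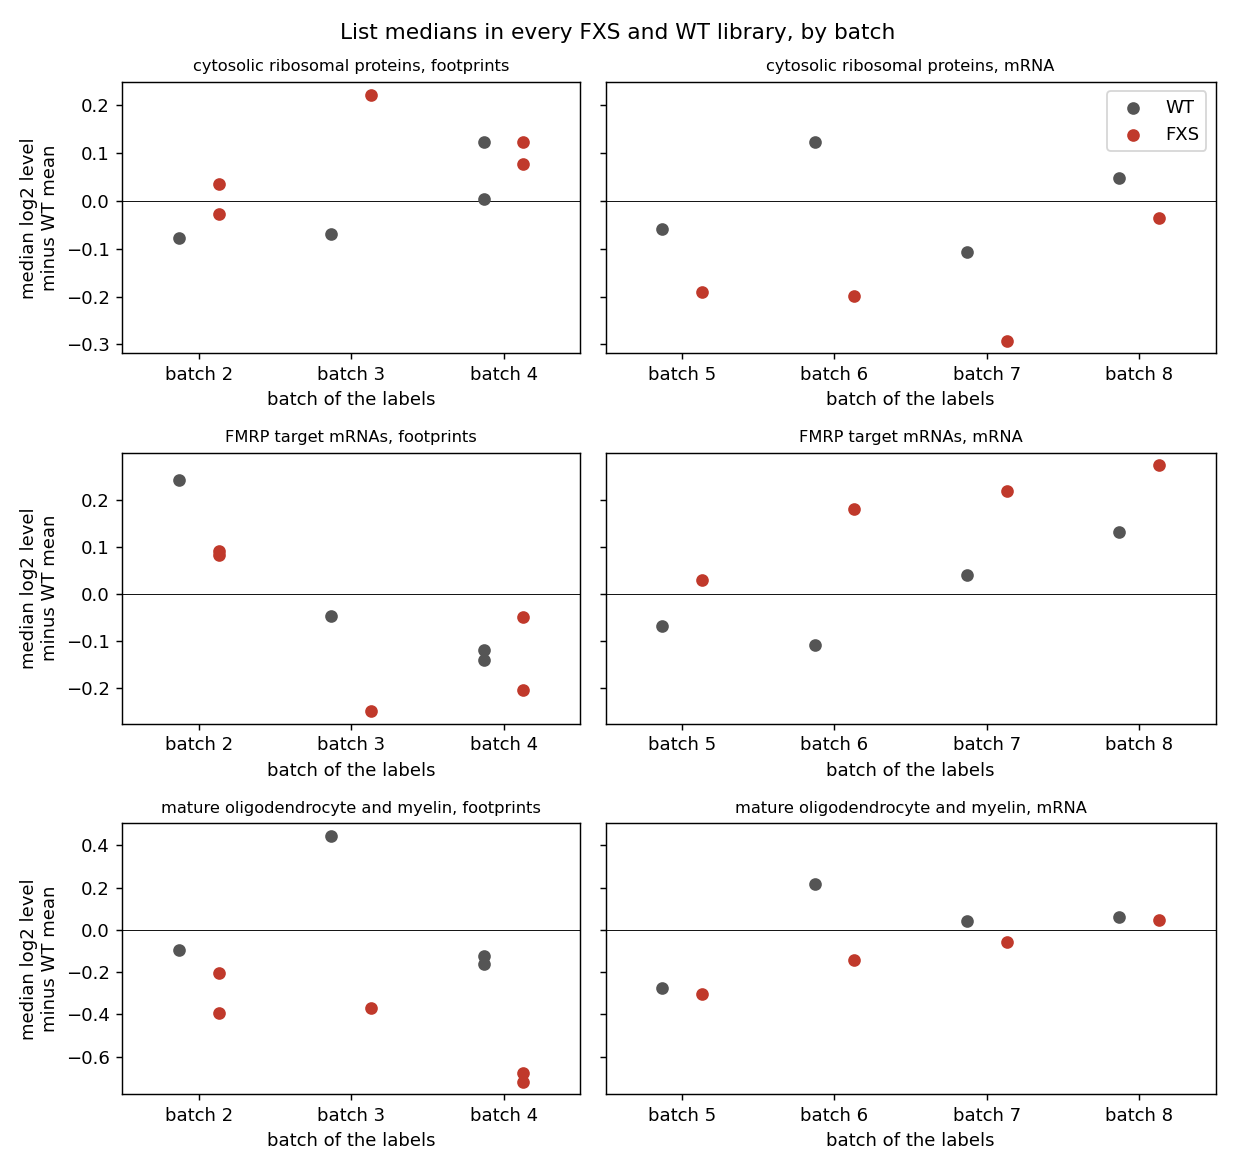
Each point is the median over a list in 1 library, as log2 of CPM plus 0.5 minus the WT mean of each gene, by batch on the x axis; rows are lists, the left column is footprints and the right column mRNA. Ribosomal protein mRNA is lower and FMRP target mRNA higher in FXS in each of batches 5 to 8, and myelin footprints are lower in FXS in each of batches 2 to 4.

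Myelin and mature oligodendrocyte genes had a TE change below 0 in 41 of 45 members, and here the footprint side dominated. Myrf was the member called by edgeR, while 5 were among the 97 genes called lower by DESeq2 and none was called by limma voom. At an unadjusted p under 0.05, 23 members (51.1%) were lower and none higher, and the median TE change was -0.41. Footprints had a median change of -0.55, with 42 members (93.3%) lower at an unadjusted p under 0.05 and 21 called lower (of 106 genes, 0.776% of all), against -0.12 in mRNA. Cnp, a myelin nucleotide phosphodiesterase, had a TE change of -0.44 ± 0.1001 (adjusted p = 0.0849, edgeR), and Plxnb3, a semaphorin receptor of oligodendrocytes, -0.66 ± 0.154. Mbp, which encodes myelin basic protein and whose mRNA is carried into the myelin sheath, had a TE change of -0.08 ± 0.152, with footprints at -0.36 and mRNA at -0.28.

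Summed over the 45 genes, myelin markers reached 4462 to 6621 CPM in WT footprints and 2997 to 4534 in FXS, and 3604 to 5678 in WT and 3294 to 5057 in FXS mRNA. In bulk cortex, fewer oligodendrocytes and less RNA per oligodendrocyte cannot be told apart. The part of these marker sums in the TE of the list was not tested. By batch, footprints of the list were lower in FXS by 0.18, 0.79 and 0.55 in batches 2, 3 and 4. The highest library was the WT library of batch 3, and without it 14 members were lower in TE at an unadjusted p under 0.05, with the median between -0.58 and -0.30 over 27 alternatives. Oligodendrocyte precursor genes had a median of -0.40, with 5 of 10 lower at an unadjusted p under 0.05. Without footprint batch 3 the median was -0.21, with 1 of 10 lower, and in footprint batch 2 the groups differed by 0.01, with 5 members higher and 5 lower in FXS. Among them were Olig1 (-0.68 ± 0.237), Gpr17 (-0.42 ± 0.168) and Pdgfra (-0.43 ± 0.1798), each uncalled.

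Neuronal lists had medians below 0 that were nearer to it than the myelin median. Postsynaptic scaffold genes had 11 of 24 members lower at an unadjusted p under 0.05 and a median of -0.23, with Igsf9b called by edgeR and 4 members by DESeq2. Iqsec1, an Arf exchange factor, was at -0.33 ± 0.0904 (adjusted p = 0.142, edgeR). This list shared 12 genes with the FMRP targets, and of the other 12 only 1 was lower at an unadjusted p under 0.05. Sodium and calcium channels had 9 of 26 lower and a median of -0.16, with Cacna1i at -0.60 ± 0.159 and Cacna1a at -0.50 ± 0.151, both pore-forming calcium channel subunits. Of these 26 genes 5 were FMRP targets, and 4 of the other 21 were lower; 4 of 26 were lower without footprint batch 3. Potassium channels had 9 of 42 lower and a median of -0.22, which was -0.10, with 1 lower, without the WT footprint library of batch 3.

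Among presynaptic genes, 10 of 50 were lower at an unadjusted p under 0.05, and the median was -0.11. Rph3a was called by edgeR and 4 members by DESeq2, and the release factor Unc13a (-0.64 ± 0.142, adjusted p = 0.0766, edgeR) and the active zone scaffold Bsn (-0.72 ± 0.187) came next. Their footprint median was 0.00 and their mRNA median 0.14, with 19 of 50 mRNAs higher at an unadjusted p under 0.05. Glutamate receptor subunits had 5 of 24 lower and a median of -0.22, led by the kainate receptor gene Grik3 (-0.58 ± 0.144). Without the WT footprint library of batch 3 that median was -0.04. The cAMP list had 3 of 40 lower (7.5%), the called Adcy1 among them, and 2 higher (5%), close to the share of all genes. Its median was -0.08, with 28 of 40 members below 0. Cortical neuron markers had 4 of 28 lower and a median of -0.17, with Tbr1, a transcription factor of deep-layer projection neurons, at -0.47 ± 0.12. The neuron median was -0.07 without footprint batch 3, -0.09 without its WT library and -0.11 without its FXS library.

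Chromatin and transcription coregulator genes had 21 of 64 members lower at an unadjusted p under 0.05 and a median of -0.19. The list shared 19 genes with the FMRP targets, and 12 of the other 45 were lower. Zmiz1 was called by edgeR, 4 members were called by DESeq2, its paralogue Zmiz2 was at -0.44 ± 0.111 and the remodeller Chd5 at -0.44 ± 0.106 (adjusted p = 0.0947, edgeR). The footprint side of this list rested on batch 2, where its median was lower in FXS by 0.25, while it was 0.04 in batch 3 and -0.02 in batch 4. Without batch 2, 8 members were lower at an unadjusted p under 0.05 and the median was -0.08.

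Genes of the respiratory chain had a small positive median, with 13 of 76 higher and 1 lower at an unadjusted p under 0.05 and a median of 0.13. The mRNA median was -0.10 and the footprint median 0.00. Without FXS mRNA replicate 2 the TE median was 0.07, and the number higher was 8 without FXS mRNA replicate 3, FXS footprint replicate 3 or footprint batch 3, and 20 without WT footprint replicate 4. Ndufb9 and Ndufs4, subunits of complex I, were at 0.35 ± 0.111 and 0.29 ± 0.0957, both uncalled. Proteasome subunits had 5 of 32 higher, none lower and a median of 0.09, and without footprint batch 3 none of the 32 was higher at an unadjusted p under 0.05 by edgeR and the median was 0.04.

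**Figure D4:**
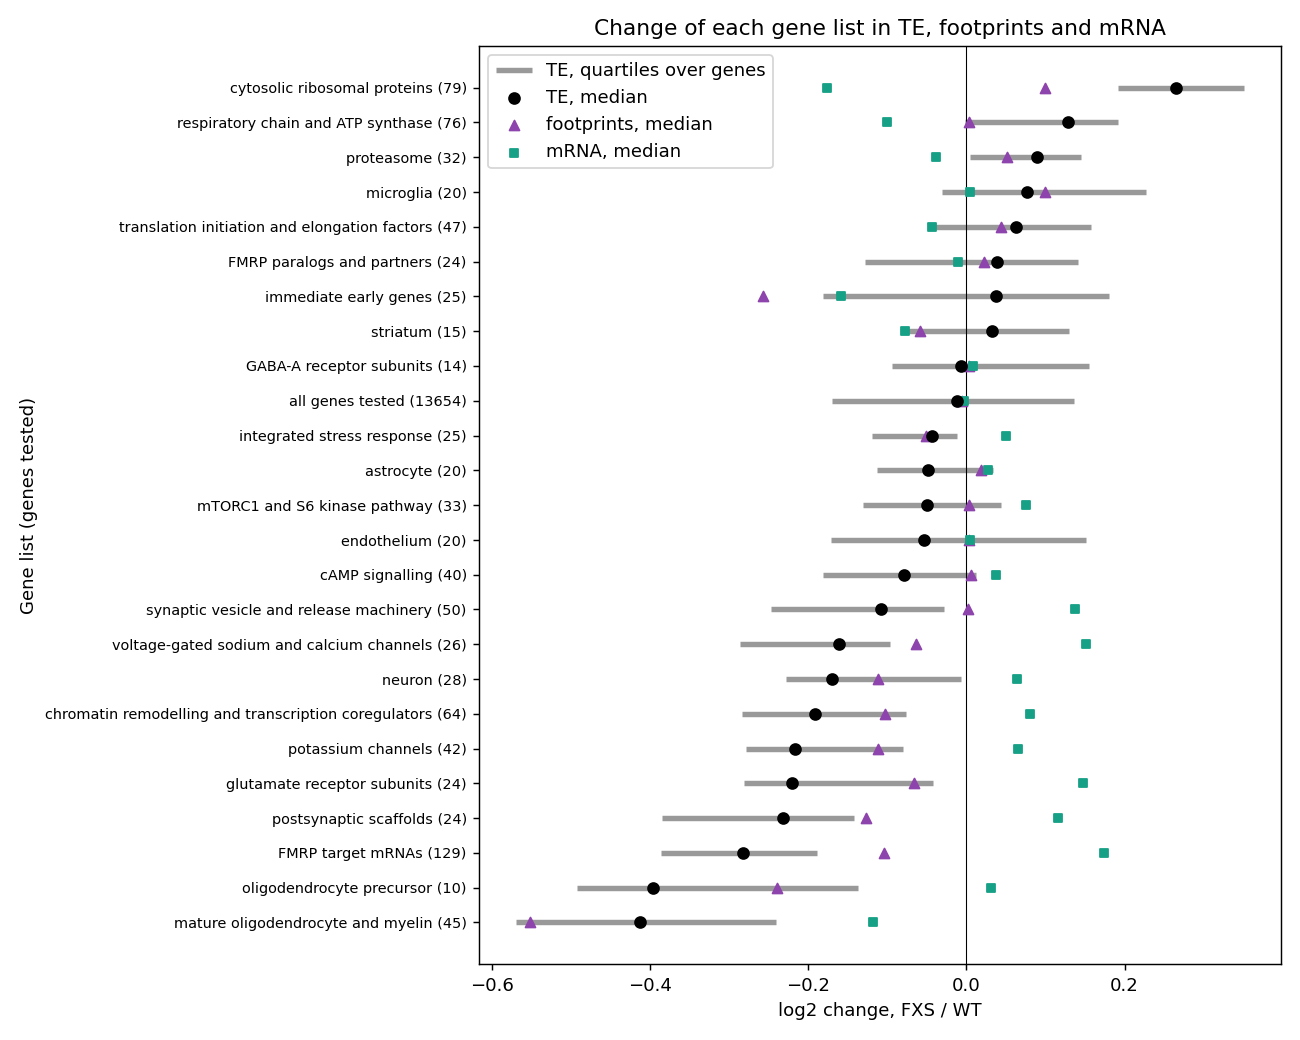
Rows are the 24 gene lists and all genes tested, with the number of genes in brackets; black points are median TE changes with grey bars for the quartiles over genes, triangles are median footprint changes and squares median mRNA changes (log2, FXS over WT). Ribosomal protein genes have the highest median TE (0.26) and myelin genes the lowest (-0.41), and in most lists of neuronal genes the mRNA median lies above 0 and the footprint median below it.

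The other lists had medians between -0.05 and 0.08. Members of the mTORC1 and S6 kinase pathway, which links growth signals to ribosomal protein translation, had 3 of 33 higher, 3 lower and a median of -0.05. Pdcd4, a translation repressor that S6 kinase marks for degradation, was at 0.28 ± 0.0858, Rptor at -0.28 ± 0.0994 and Mtor at -0.30 ± 0.107, none of them called by edgeR; DESeq2 called 1 member of the list higher. Among FMRP paralogues and partners, 3 of 24 (12.5%) were higher and 6 (25%) lower, against 5.66% and 7.7% of all genes, with a median of 0.04 and Cyfip2, an FMRP-interacting regulator of actin, at -0.32 ± 0.09201. Integrated stress response genes had 1 of 25 lower and a median of -0.04. Immediate early genes had none of 25 members at an unadjusted p under 0.05 by edgeR, and none called by edgeR, DESeq2 or limma voom, while astrocyte, microglia, endothelium, striatum and GABA-A receptor lists had at most 2. The medians of these 6 lists and of the FMRP partners changed sign in at least 1 alternative.

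Loss of Fmr1 could also be read on the background without S6 kinase 1, as DKO against S6K1, in libraries that do not enter the FXS and WT contrast but are fitted in the same model. There 12 of the 13 genes had a value in the same direction (11 of 12 without Fmr1, which both comparisons target). Of these, 9 were at an unadjusted p under 0.05 (8 without Fmr1), against 14.6% of all genes (7.27% higher and 7.35% lower). The share of all genes with the same direction in both comparisons was not counted. The TE changes of all genes were correlated between the comparisons (Spearman rho = 0.403), so the count of 12 is a description without a background. After Fmr1, Ciz1 had the smallest p of the 13 genes, at -0.45 ± 0.114 (adjusted p = 0.201, edgeR), beside its value of -0.49 in FXS against WT. Aatk was at -0.45 ± 0.136, Rph3a at -0.41 ± 0.129, Zmiz1 at -0.36 ± 0.116, Adcy1 at -0.39 ± 0.142, Igsf9b at -0.55 ± 0.2202, Cebpzos at 0.54 ± 0.198 and 2700029M09Rik at 0.30 ± 0.124. Fmr1 alone passed adjustment in that comparison (1 gene, 0.00732%).

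The remaining genes were Myrf at -0.24 ± 0.154, Stpg1 at 0.47 ± 0.448, Tnr at -0.08 ± 0.14 and Igbp1b, in the opposite direction, at -0.38 ± 0.429. For these 4 genes the interaction term, the difference between the 2 backgrounds, was at an unadjusted p under 0.05 and did not pass adjustment (adjusted p = 0.9998, edgeR). The difference was -2.30 ± 0.585 for Igbp1b, -1.33 ± 0.588 for Stpg1, 0.53 ± 0.189 for Tnr and 0.45 ± 0.208 for Myrf, as DKO against S6K1 minus FXS against WT. Over all genes the interaction gave 565 genes at an unadjusted p under 0.05 (4.14%) and none after adjustment by edgeR (0%) or limma voom, against 2 by DESeq2. The genes were chosen for their change in FXS against WT, which is 1 side of this difference, so these values are a description. Across all 13654 genes, the 2 TE changes had a Pearson r of 0.303 and a Spearman rho of 0.403. The 2 comparisons share no library, but share the model's batch terms and its estimate of spread.

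**Figure D5:**
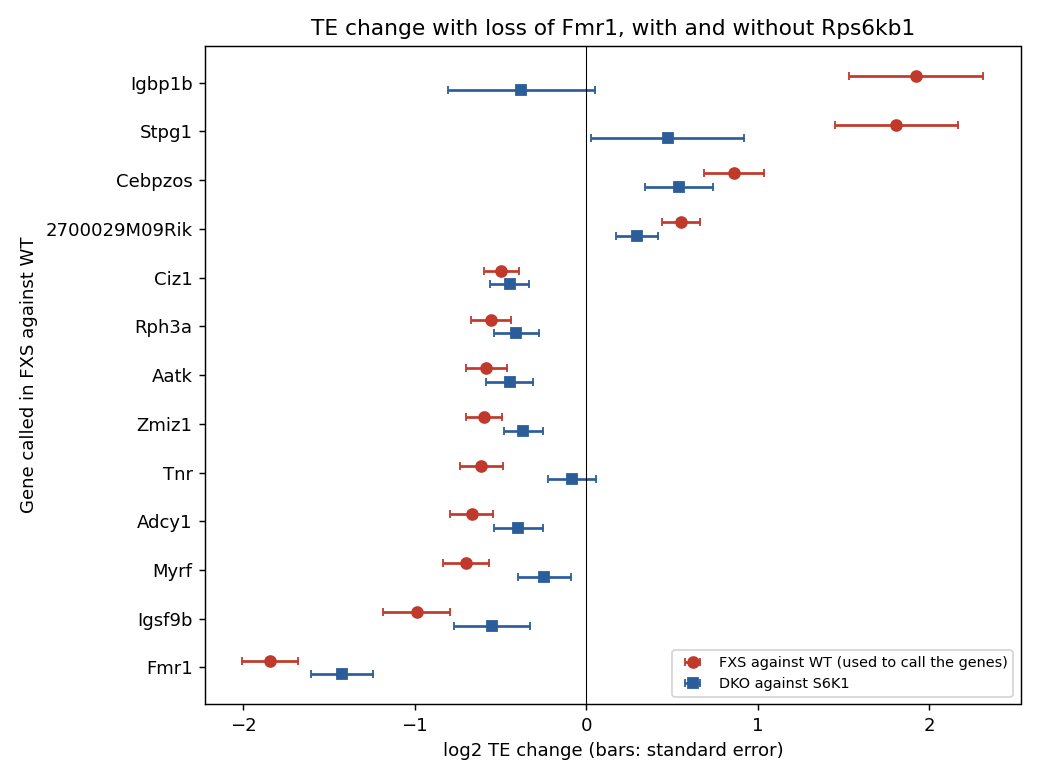
Points are log2 TE changes of the 13 called genes with their standard errors, for FXS against WT (circles, the comparison that chose the genes) and DKO against S6K1 (squares). Every gene except Igbp1b lies on the same side of 0 in both, and every gene is nearer to 0 in DKO against S6K1, the comparison that did not choose the genes.

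List values on the second background are given beside those of all genes tested in DKO against S6K1. These were 7.27% higher and 7.35% lower at an unadjusted p under 0.05, with a median of -0.004. FMRP targets had a median TE change of -0.13 in DKO against S6K1, with 35 of 129 lower and 4 higher at an unadjusted p under 0.05, and myelin genes -0.14, with 6 of 45 lower and 1 higher. Ribosomal protein genes had 0.02, with 3 of 79 higher and 1 lower, and chromatin genes 0.00. Proteasome genes had 0.21, with 14 of 32 higher and none lower. Whether a list's median differs between the backgrounds was not tested. DKO against WT, which shares the WT libraries with FXS against WT, called 662 genes in TE (4.85%), and its list medians were 0.20 for ribosomal proteins, -0.26 for FMRP targets and -0.71 for myelin.

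The authors' deposited table of TE for FXS against WT lists 12004 genes, of which 2 have an adjusted p under 0.05, Fmr1 (log2 change -1.86, adjusted p = 3.14e-10) and Myrf (-0.70, adjusted p = 0.0478), and 898 an unadjusted p under 0.05. In the authors' deposited table, 11 of the 13 genes called here are listed, each with the same sign and an unadjusted p under 0.05. Stpg1 and Igbp1b are the 2 that are not listed. That table describes the same series, and its log2 changes nearly equal those here (Pearson r = 0.999 over 12004 genes). The shared signs are therefore no independent support. Apart from Fmr1 and Myrf, the listed genes have an adjusted p from 0.0541 (Ciz1) to 0.512 (Adcy1) in the authors' deposited table. The next genes by p in the authors' deposited table are Ciz1 and Cnp, both with an adjusted p of 0.0541.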

How the data were processed

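Raw counts per gene symbol were deposited by the authors in 1 table per assay, 20436 symbols each; their names describe counting over coding sequence. Per the submitters' processing notes, cutadapt 2.0, Bowtie2, TopHat2 and RSEM and the build mm10 were used, with no role given for each tool. The authors' deposited TE table gives log2 fold changes with standard errors and p-values, whose model is not given in the sources used here. Per the labels, footprint libraries came from ribosome profiling and mRNA libraries from TruSeq polyA preparation.

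Genes passing filterByExpr by genotype in footprints (13953) and in mRNA (14215) left 13654 in both. One edgeR 4.0.16 quasi-likelihood model (robust, R 4.3.3) was fitted to all 31 libraries with genotype within assay and batch nested in assay, and with TMM factors computed within each assay (0.964 to 1.09 in the FXS and WT libraries). The TE contrast was the footprint contrast minus the mRNA contrast. Its 2 parts, the standard errors (from the quasi-likelihood F) and the contrasts DKO against S6K1, DKO against WT and the interaction (DKO against S6K1 minus FXS against WT) came from the same model. Calls were made at a Benjamini-Hochberg adjusted p under 0.05. The procedure was run on simulated counts without batch effects and with the same spread for every gene. These data differ in both, so the rate of false calls here was not tested. Levels are CPM with TMM scaling. DESeq2 1.42.0 and limma 3.58.1 voom were alternatives, with RLE factors, other filters, and libraries or batches left out.

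Batch was kept as the block: FXS and WT libraries of the same batch deviated together (median correlation 0.325 over 4 mRNA pairs, all above 0.1, and 0.324 over 7 footprint pairs, all above 0.1), against -0.0962 and -0.201 between batches. No 2 replicates of a group repeated each other (smallest chi-square per degree of freedom 5.91 in mRNA and 7.79 in footprints). Replicate numbers follow accession order and pair nothing.

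The comparison, its gene lists and the rule for named genes were chosen with earlier results of these data known, so lists are described by counts and medians without a test. The rule names Fmr1, Rps6kb1, every called gene, uncalled genes with the smallest p until 12 higher and 12 lower are named, and in each list the 3 members with the smallest p and the 3 with the most footprints, of which the text gives a selection; some are not reported here. Gene positions are RefSeq's on GRCm38, matched by symbol or synonym.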

Additional observations from a re-analysis of the deposited data

Results flagged for a closer look

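In groups of 4 or 5 libraries, 9 of 156 sets of values had 1 library far from the rest by Dixon's test at 95%, about the share of 1 in 20 that chance gives. The footprint library of FXS in batch 3 (replicate 3) was low for Zmiz1, at 89.1 CPM against 117 to 127, and high for Cebpzos, at 19.6 CPM against 10.3 to 12.6. The WT footprint library of the same batch (replicate 2) was high for Cebpzos, at 11.9 CPM against 8.86 to 9.08, and for the myelin list, at 0.45 against -0.16 to -0.10 (median log2 level relative to the WT mean). Stpg1 was at 0.867 CPM in WT footprint replicate 4 against 0.302 to 0.363, and at 3.40 CPM in FXS mRNA replicate 2 against 1.66 to 1.90. The FXS mRNA library of batch 5 (replicate 1) was low for the microglia list, at -0.97 against 0.26 to 0.51, and for the glutamate receptor list, at -0.25 against 0.28. The WT mRNA library of that batch was also low for both, at -0.81 against 0.10 to 0.54 and -0.36 against 0.06 to 0.16. The immediate early gene list was at 0.70 in WT footprint replicate 4, against -0.29 to -0.16.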

How the results depend on the processing

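The number of genes called moved under nearly every alternative, while the 13 called genes kept their direction in all that gave them a value. The alternatives reuse the libraries that chose these genes, so a kept direction is a weak check. Against 13 genes called in FXS against WT, leaving out the batch term (no replicate block) gave 1, DESeq2 130 (8 of them among the 13), limma voom 2, RLE factors 2, no filter on low counts 3, a filter at a mean of 5 CPM 2, FXS and WT libraries alone 1 and leaving out mRNA batch 5 1. DESeq2 gave no adjusted p for Myrf, Igsf9b, Cebpzos, Stpg1 and Igbp1b, the genes among the 13 that it did not call. Leaving out each of the 17 libraries in turn gave 1 to 33. The highest number came without FXS footprint replicate 4, which kept all 13, and 1 gene was left without FXS footprint replicate 2 or 3, WT footprint replicate 2, WT mRNA replicate 1 or FXS mRNA replicate 1 or 3. Leaving out footprint batch 2 gave 6 and batch 3 gave 2, settings chosen after seeing the data. The cause of these differences was not tested.

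DKO against S6K1, with 1 gene called, gave 0 without the replicate block, 24 with DESeq2 and 3 without footprint batch 3. The interaction, with 0 called, gave 2 with DESeq2, 1 with the 5 CPM filter and 2 without footprint batch 3. Fmr1 was called in all 27 alternatives for FXS against WT, with its TE change between -1.95 and -1.73, and Zmiz1 in 14, between -0.63 and -0.54. The other called genes were called in 2 to 6 of the 24 to 27 alternatives that gave them an adjusted p. The FMRP target median ran from -0.32 to -0.23 over the 27 alternatives. Counts of list members at an unadjusted p under 0.05 ran from 22 to 56 for ribosomal proteins (44 as reported), from 13 to 85 for FMRP targets (77) and from 8 to 29 for myelin (23), each lowest without the replicate block. A description by coding length was not run. Depth limits Stpg1 and Igbp1b, at under 2 CPM in footprints.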
